A study of Mus musculus with 14 samples.

Results

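Aminoacyl-tRNA synthetases join each amino acid to its tRNAs and so supply the ribosome with charged tRNA. Nuclear genes encode a set for the cytosol and a set for the mitochondrial matrix, where a separate ribosome makes a few subunits of the respiratory chain. Several cytosolic synthetases sit together in the multisynthetase complex, which is held by the scaffold proteins Aimp1, Aimp2 and Eef1e1. Mitochondria have no glutaminyl synthetase of their own: Ears2 loads glutamate onto the glutamine tRNA, and the amidotransferase of Gatb, Gatc and Qrsl1 converts it. The synthetases were chosen by gene symbol and not by any measured value, and they numbered 37 of the 18507 genes listed, 20 of them cytosolic and 17 mitochondrial. Gars and Kars, counted here as cytosolic, each encode the cytosolic and the mitochondrial enzyme.

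Gene expression was measured by RNA sequencing in mouse oocytes, taken after ovulation or as germinal vesicle (GV) oocytes, which are still arrested in meiotic prophase. The ovulated CKO group (3 libraries) and the GV CKO group (4 libraries) came from mice with the genotype Mff fl/fl; Gdf9-Cre, in which the Gdf9 promoter drives Cre recombinase in oocytes. The ovulated WT group (3 libraries) and the GV WT group (4 libraries) came from Mff fl/fl mice, so that the controls carried the same floxed allele without Cre and no group carried Cre alone. Mff encodes the mitochondrial fission factor, a receptor for the fission enzyme on the mitochondrial outer membrane. No source used here gives the age of the mice or how many oocytes and animals went into a library. The p-values below therefore cover the spread between libraries, which may be technical in part.

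Upstream sequence was available for 27 of the 37 synthetases in RefSeq windows that span 250 bases before to 50 bases after a gene's annotated start (GRCm38.p6). The transcription factor ATF4, which is made when uncharged tRNA activates the kinase Eif2ak4, binds elements of the form TGATGNAAN and is known to act on many cytosolic synthetase genes. These letters, read on both strands, were found for 5 of the 27 synthetases (18.5%), against 3.49% of 14669 genes listed in the deposited tables. Those shares count genes, and the 27 synthetases had 28 windows. Counted by window, the share was 3.95% of all 32851 windows. All 5 were among the 13 cytosolic genes with a window, and none was among the 14 mitochondrial genes. The windows of 4 of these genes are printed because these matches fell among the cytosolic genes, a difference that was not tested, with the match in capitals on the gene's strand and 10 bases of context on each side. A match describes these letters and is no evidence of binding.
Gars, chr6:55037960-55037988, plus strand: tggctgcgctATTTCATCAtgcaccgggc
Iars, chr13:49682126-49682154, plus strand: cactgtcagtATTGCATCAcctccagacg
Tars, chr15:11399656-11399684, minus strand: caggagtcccGTTGCATCAgctggttagc
Yars, chr4:129189896-129189924, plus strand: cgagctcagcTGATGCAACccgacgggac

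These 4 genes did not move as a group in the comparisons reported below. Gars and Iars fell between the GV stage and ovulation in WT oocytes, Tars did not pass the test, and Yars was at 0 to 8 counts in every library. The E-box CACGTG was found for 5 of the 27 synthetases (18.5%, against 10.1% of genes in the deposited tables and 7.15% of all windows). CCAAT, which is part of no other motif searched, was found for 13 (48.1%, against 43.1% and 37.4%). Both motifs were read on both strands. The windows of Iars2 and Eprs are printed because these genes, both on chromosome 1, moved in opposite directions at ovulation. The 250 bases before the Iars2 start held no ATF4-type element and had a reversed CCAAT, shown in capitals. The 250 bases before the start used for Eprs held none of the 3 motifs. This Eprs window lies inside the gene's listed span (chr1:185361417-185428360), so it is not upstream of the whole gene.
Iars2, chr1:185329402-185329651, minus strand: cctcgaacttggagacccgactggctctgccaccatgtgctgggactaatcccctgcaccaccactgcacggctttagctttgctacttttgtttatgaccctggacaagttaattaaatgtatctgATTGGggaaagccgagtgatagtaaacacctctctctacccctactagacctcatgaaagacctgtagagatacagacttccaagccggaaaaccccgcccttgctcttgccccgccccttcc
Eprs, chr1:185362794-185363043, plus strand: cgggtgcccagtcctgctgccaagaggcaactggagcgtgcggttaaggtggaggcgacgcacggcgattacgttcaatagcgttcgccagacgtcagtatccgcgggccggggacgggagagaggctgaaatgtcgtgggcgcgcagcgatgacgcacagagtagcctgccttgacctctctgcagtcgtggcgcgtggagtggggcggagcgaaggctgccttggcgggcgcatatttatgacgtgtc

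Library totals lay between 26575593 and 28847424 estimated counts. Mff, the targeted gene, stood at 31.3 to 54.4 CPM (counts scaled to library size) in the 3 ovulated CKO libraries, against 304 to 688 CPM in ovulated WT, and at 30.1 to 47.3 CPM in the 4 GV CKO libraries, against 477 to 945 CPM in GV WT, so that the labels and the targeted gene did not conflict. Markers of oocytes summed to between 16380 and 37220 CPM in every library, markers of granulosa and cumulus cells to at most 132.8 CPM and markers of blood, immune and stromal cells to at most 138.8 CPM. GV CKO 1, GV CKO 2 and GV WT 2 stood apart from the other GV libraries, with 35.2%, 42.4% and 38.1% of counts in their 100 most abundant genes, against 48.2% to 51.1% in the other 5. In the ovulated set CKO 2 (25%) and WT 3 (35.4%) lay at the ends of that range.

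Levels between genes were compared per transcript length, in the FPKM (fragments per kilobase of transcript, scaled to library size) that the authors deposited. Cytosolic synthetases had a median group mean of 16.1 FPKM in ovulated CKO, 9.79 FPKM in ovulated WT, 18.2 FPKM in GV CKO and 21.1 FPKM in GV WT oocytes. The mitochondrial medians were 0.81, 0.291, 1.38 and 1.45 FPKM in the same groups. In each group, then, the typical mitochondrial synthetase was listed far below the typical cytosolic one. The 2 stages were deposited as separate FPKM tables, so levels set across stages also carry any difference in how those tables were scaled.

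Iars2, the mitochondrial isoleucyl synthetase (chr1:185286642-185329419), went against that pattern. Its FPKM was 116, 131 and 74.4 in the 3 ovulated CKO libraries, 84.5, 103 and 47.1 in ovulated WT, 1140, 727, 1221 and 1142 in GV CKO, and 1402, 923, 1219 and 1155 in GV WT. It was the 104th most abundant gene by mean FPKM in GV CKO and the 86th in GV WT, and every GV library lay above every ovulated one. Iars2 alone made up 44.5% to 59.3% of the summed FPKM of mitochondrial synthetases in ovulated CKO libraries, 36.2% to 56.8% in ovulated WT, 89.3% to 94.9% in GV CKO and 90.8% to 95.8% in GV WT. Hars2, the mitochondrial histidyl synthetase and the lowest of its compartment, had 0 to 5 counts per GV library. It was not listed in the ovulated table.

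Among the cytosolic genes, Farsb was the highest and Yars the lowest. Farsb and Farsa encode the 2 subunits of the cytosolic phenylalanyl synthetase. Farsb averaged 148 ± 15.4 FPKM in ovulated CKO, 160 ± 48.4 in ovulated WT (SD, n = 3 each), 148 ± 22.7 in GV CKO and 151 ± 7.71 in GV WT (SD, n = 4 each), with means that differed by less than the ovulated WT spread. Farsa averaged 6.60 ± 1.81, 8.54 ± 4.12, 19.3 ± 3.38 and 23.7 ± 4.71 FPKM in the same order of groups. The subunits thus had unequal transcript levels in all groups, and the gap was wider after ovulation. Yars, the cytosolic tyrosyl synthetase, was listed at 0 to 0.13 FPKM, below every other cytosolic member in each group. No source used here says how reads at this gene were assigned, and no level is drawn from it.

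Set amino acid by amino acid, the mitochondrial synthetase was lower than its cytosolic partner in 11 of 13 pairs with both means at 0.1 FPKM or more in ovulated CKO, 11 of 13 in ovulated WT, 11 of 13 in GV CKO and 12 of 14 in GV WT. The median ratio of mitochondrial to cytosolic FPKM was 0.06 in ovulated CKO, 0.0564 in ovulated WT, 0.206 in GV CKO and 0.21 in GV WT. The pairs with a ratio above 1 were those of isoleucine and of phenylalanine, the second with Farsa as the partner. Iars2 over Iars was 2.43 in ovulated CKO, 2.33 in ovulated WT, 19.9 in GV CKO and 23.0 in GV WT. Fars2 over Farsa was 12.1, 8.26, 1.72 and 1.30 in the same order, although in GV WT only 2 of the 4 libraries had Fars2 above Farsa. Against Farsb, the other subunit of the cytosolic enzyme, Fars2 was the lower gene in each group, at ratios of 0.539, 0.441, 0.224 and 0.203, so the phenylalanine exception holds for Farsa alone. Lars2 over Lars was 0.248, 0.247, 0.549 and 0.685. At the other end, Nars2 over Nars (asparagine) was 0.0103, 0.00949, 0.00803 and 0.00539. Ears2 over Eprs fell among the lowest as well, at 0.00585 in ovulated CKO and 0.00284 in ovulated WT, against 0.0436 in GV CKO and 0.0496 in GV WT.

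**Figure D1:**
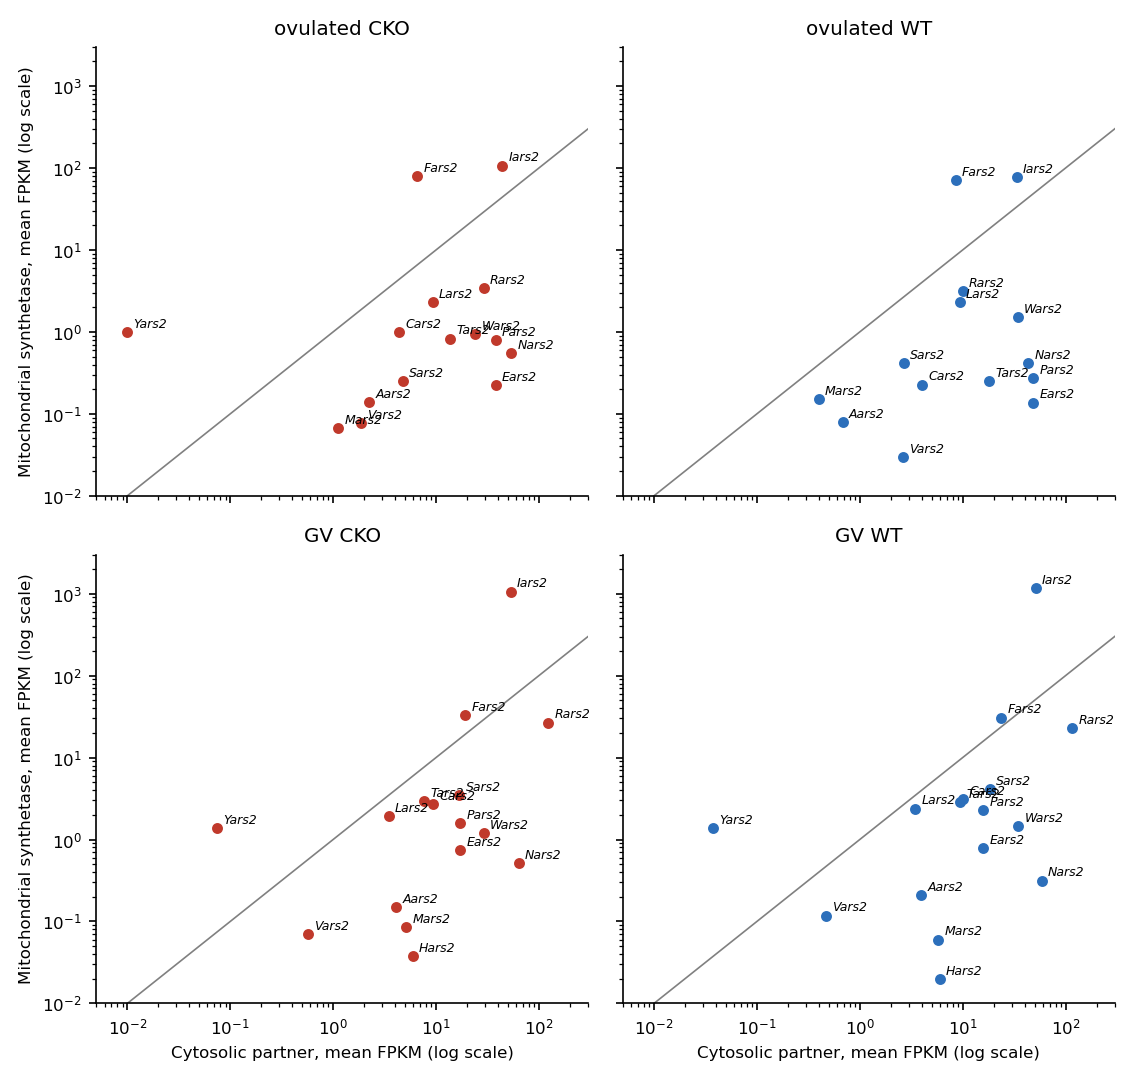
Mean FPKM of each mitochondrial synthetase (vertical axis, log scale) against its cytosolic partner (horizontal axis, log scale), a panel per group and a point per amino acid; the line marks equal levels, and pairs with a gene at 0 and 1 further pair are not drawn. Phenylalanine is drawn with Farsa as the partner. Iars2 and Fars2 lie above the line in every panel, and Yars2 does so where Yars is near 0, while the other pairs lie below it.

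The first question was how the synthetases changed between the GV stage and ovulation in WT oocytes. In edgeR's quasi-likelihood test, with a gene called at a Benjamini-Hochberg adjusted p under 0.05 over all genes tested, 25 of the 35 synthetases tested changed, 22 lower and 3 higher in ovulated oocytes. Of all 13199 genes tested 66.4% were called, 36.2% lower and 30.3% higher. Among 19 cytosolic synthetases 12 fell and 3 rose, with a median log2 fold change of -1.01. Among 16 mitochondrial synthetases 10 fell and none rose, with a median of -2.89. The median over all genes was -0.17, and the difference between the compartments was not itself tested. Stage and deposited table cannot be told apart in this comparison, and fewer transcripts per oocyte cannot be told apart from a smaller share of the library.

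The synthetases of the multisynthetase complex split. Qars, which charges glutamine (chr9:108508005-108515941), had 25.8, 21.7 and 10.2 CPM in the ovulated WT libraries, against 437, 249, 397 and 492 CPM in GV WT. Every GV library lay far above every ovulated one, a difference of -4.36 on the log2 scale (SE 0.47, adjusted p = 4.61e-07). Rars, which charges arginine (chr11:35808381-35834528), had 18.8, 19.0 and 13.1 CPM in ovulated WT, against 334, 164, 271 and 331 CPM in GV WT, and fell by 4.02 on the log2 scale (SE 0.41). Mars, which charges methionine, had 1.58, 0.68 and 1.43 CPM in ovulated WT, against 23.6, 9.81, 22.0 and 23.7 CPM in GV WT, and fell by 4.00 on the log2 scale (SE 0.57). These 3 enzymes of the complex had the steepest falls of all cytosolic synthetases in WT oocytes.

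Other synthetases of the complex moved less or the other way. Dars (aspartate) fell by 1.30 and Iars (isoleucine) by 1.02 on the log2 scale, and Kars (lysine), at -0.42, was not called (adjusted p = 0.126). Eprs, which charges glutamate and proline (chr1:185361417-185428360), rose: it had 211, 204 and 187 CPM in ovulated WT, against 82.4, 90.9, 93.6 and 81.2 CPM in GV WT. Its log2 fold change was 1.21 (SE 0.23), and the groups did not overlap. Lars (leucine) rose as well, by 1.06 on the log2 scale (SE 0.26), with 35.8, 28.9 and 27.6 CPM in ovulated WT, against 15.2, 16.3, 16.5 and 11.1 CPM in GV WT. Over the 8 synthetases of the complex, 5 fell, 2 rose and 1 was not called, with log2 fold changes between -4.36 and 1.21.

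Of the free cytosolic synthetases, 7 of 11 fell and 1 rose. The steepest falls were of Sars (serine), at -3.32 (SE 0.45), with 8.09 ± 3.11 CPM in ovulated WT (SD, n = 3) and 80.7 ± 33.2 CPM in GV WT (SD, n = 4), and of Aars (alanine), at -3.00 (SE 0.47). Farsa fell by 1.94 on the log2 scale, while Farsb, at -0.32, was not called (adjusted p = 0.364). Vars (valine) rose by 2.07 on the log2 scale (SE 0.52), with 9.16, 10.2 and 26.0 CPM in ovulated WT, against 5.68, 2.89, 3.84 and 1.99 CPM in GV WT. Tars (threonine), at 0.52, and Wars (tryptophan), at -0.42, did not pass the test. Cars, Gars, Hars and Nars fell by 0.87 to 1.93 on the log2 scale.

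**Figure D2:**
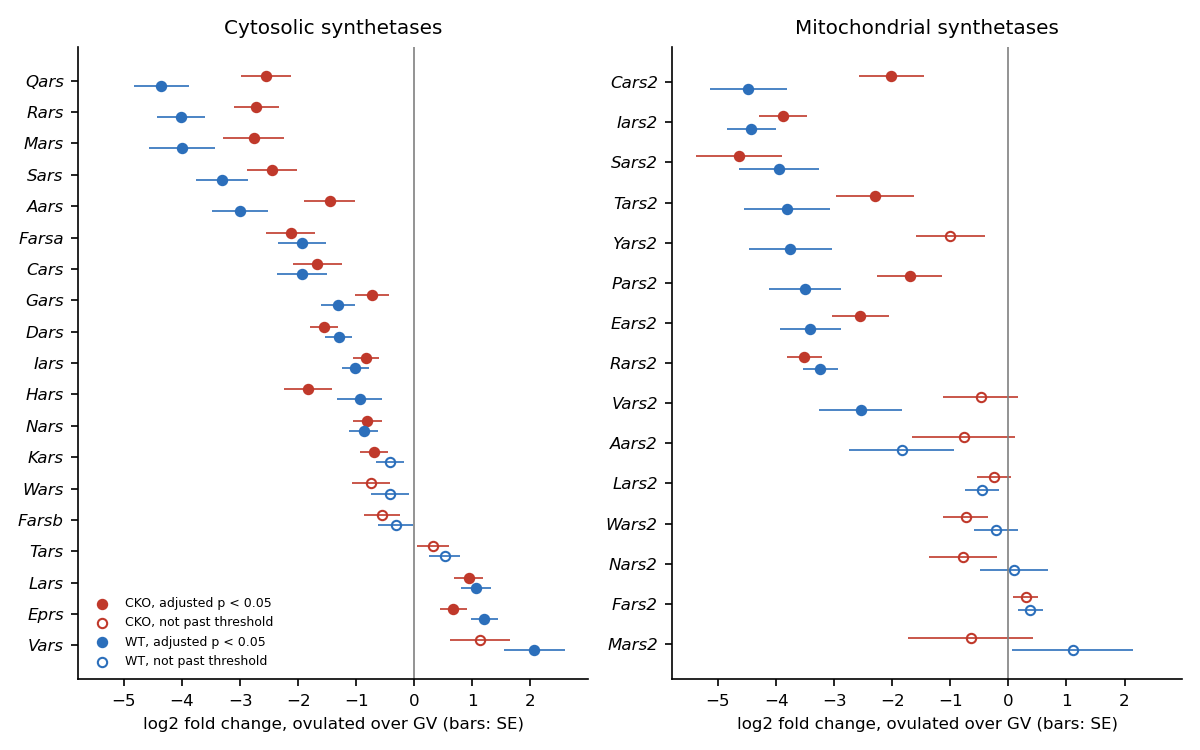
Log2 fold change of each synthetase in ovulated over GV oocytes (horizontal axis, bars are standard errors), cytosolic genes on the left and mitochondrial genes on the right, CKO in red above WT in blue; filled points passed an adjusted p of 0.05, and 1 mitochondrial gene is not drawn. Qars, Rars and Mars lie at -2.76 to -2.55 in CKO and at -4.36 to -4.00 in WT, while Lars and Eprs lie to the right of 0 in both genotypes.

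The mitochondrial synthetases that fell did so from very different levels. Iars2 had 306, 385 and 191 CPM in ovulated WT, against 8575, 3341, 6363 and 6969 CPM in GV WT, which is -4.42 on the log2 scale (SE 0.42, adjusted p = 1.33e-07). Rars2, the mitochondrial arginyl synthetase (chr4:34614957-34660167), had 4.81, 4.91 and 4.70 CPM in ovulated WT, against 41.7, 42.9, 47.5 and 49.8 CPM in GV WT, and fell by 3.24 on the log2 scale (SE 0.30). Its libraries agreed closely within each group, and Rars2 had the smallest p of all synthetases in this comparison. Cars2 (cysteine) fell by 4.48 on the log2 scale (SE 0.66), on only 15, 6 and 4 counts in ovulated WT, against 158, 129, 126 and 135 counts in GV WT. Sars2 (serine) fell by 3.94 on that scale (SE 0.69), on 10, 1 and 32 counts in ovulated WT, against 205, 104, 159 and 188 counts in GV WT. Ears2 fell by 3.41 (SE 0.53), on 34, 4 and 9 counts in ovulated WT, against 114, 128, 124 and 125 counts in GV WT. With so few reads after ovulation, the sizes of these last 3 falls are loose.

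The mitochondrial synthetases that were not called numbered 6 of the 16. Fars2, with 73.5, 72.2 and 84.2 CPM in ovulated WT and 57.5, 56.6, 60.7 and 61.5 CPM in GV WT, was at 0.38 on the log2 scale (SE 0.22, adjusted p = 0.131), although the groups did not overlap. In the separately deposited FPKM tables its mean was 70.6 FPKM in ovulated WT and 30.7 FPKM in GV WT. Lars2, at -0.46, Wars2, at -0.21, and Nars2, at 0.09, lay close to 0. Aars2, at -1.83, and Mars2, at 1.11, had at most 25 counts in any WT library and large standard errors (0.91 and 1.05). Fars2, with 1154 to 2367 counts in every WT library, was the most deeply read mitochondrial synthetase without a called change.

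**Figure D3:**
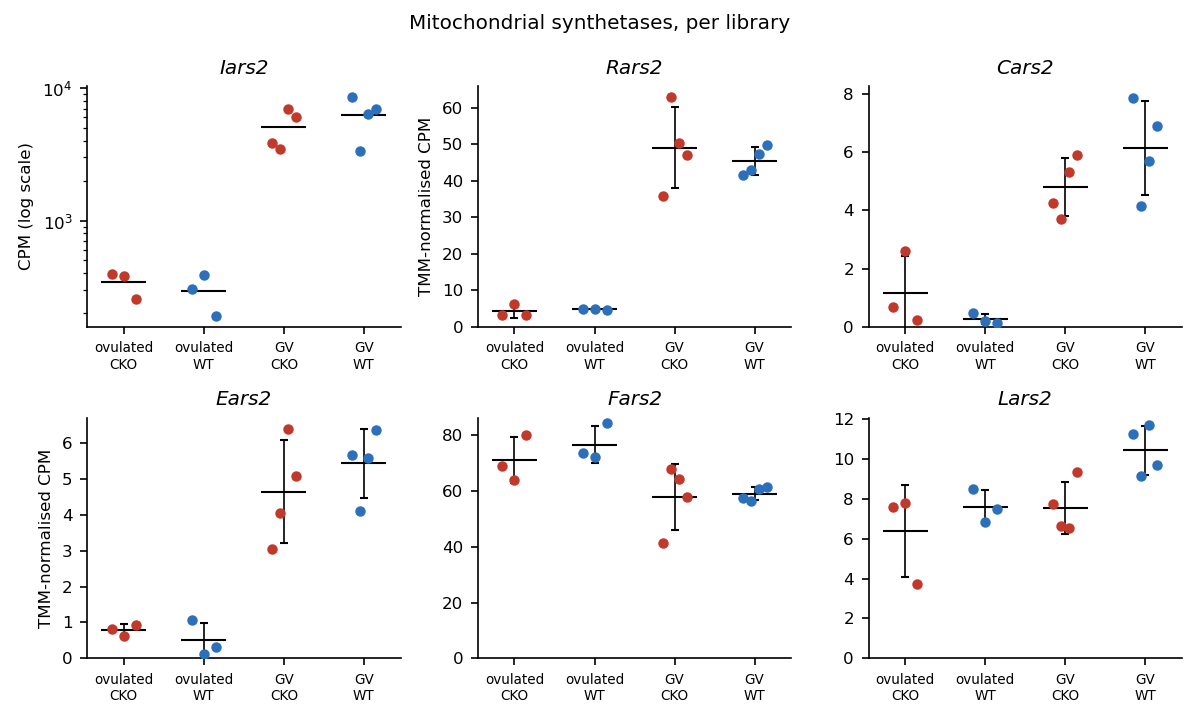
CPM of 6 mitochondrial synthetases in each library (points) by group, with the group mean as a line and SD as bars; the Iars2 panel has a log axis and no bars. Iars2, Rars2, Cars2 and Ears2 separate the stages without overlap in both genotypes, while the stages of Fars2 and Lars2 overlap in CKO but not in WT, and neither gene was called in either genotype.

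The same question was asked of CKO oocytes. The contrast set CKO libraries alone against each other, but both contrasts came from a single fit with shared filter, scaling and estimate of spread, so the calls in the 2 genotypes are not independent. In CKO 23 of 35 synthetases changed between the stages, 21 lower and 2 higher in ovulated oocytes, where 54.4% of all genes were called, 31.2% lower and 23.2% higher. Of the cytosolic genes 13 of 19 fell and 2 rose (median log2 fold change -0.83), and of the mitochondrial genes 8 of 16 fell (median -1.31), against a median of -0.19 over all genes. The calls in the 2 genotypes shared 20 genes that fell, 12 cytosolic and 8 mitochondrial, and 2 that rose, Lars and Eprs. These were 20 of the 21 that fell in CKO and 20 of the 22 that fell in WT. The sign was the same in 33 of the 35 synthetases. Shared calls and shared signs were not counted over all genes, so these counts do not set the synthetases apart from other genes. Kars was called lower in CKO alone, Vars2 and Yars2 were called lower in WT alone and Vars was called higher in WT alone, but none of these differences between genotypes passed its own test in edgeR.

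In CKO oocytes Iars2 had 396, 381 and 258 CPM after ovulation, against 3856, 3468, 6935 and 6081 CPM at the GV stage, which is -3.88 on the log2 scale (SE 0.41, adjusted p = 1.22e-06). Rars2 fell by 3.51 on the log2 scale (SE 0.31) and Sars2 by 4.65 (SE 0.74), the fall of Sars2 on 2, 10 and 8 counts in ovulated CKO against 86 to 160 in GV CKO. Qars had 33.3, 89.0 and 30.6 CPM in ovulated CKO, against 210, 231, 336 and 419 CPM in GV CKO, and fell by 2.55 on the log2 scale (SE 0.43). Rars had 28.6, 66.5 and 27.3 CPM in ovulated CKO, against 154, 267, 334 and 321 CPM in GV CKO, and fell by 2.72 (SE 0.38). For both, the ovulated CKO 2 library lay well above the other ovulated CKO libraries. Mars fell by 2.76, Sars by 2.45, Farsa by 2.13, Dars by 1.55 and Ears2 by 2.55 on the log2 scale. Eprs rose by 0.67 (SE 0.23) and Lars by 0.94 (SE 0.26) on the same scale.

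**Figure D4:**
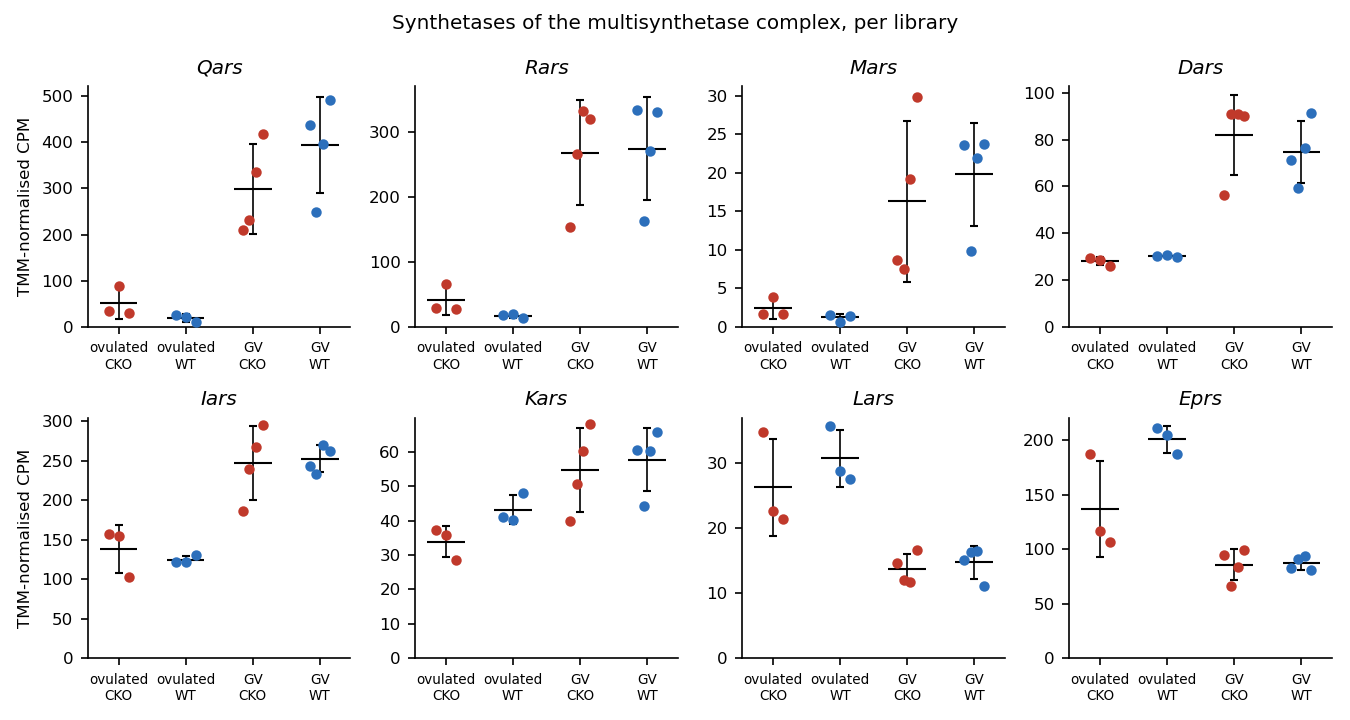
CPM of the 8 synthetases of the multisynthetase complex in each library (points) by group, CKO in red and WT in blue, with the mean as a line and SD as bars. Qars, Rars, Mars, Dars and Iars are lower in both ovulated groups than in the GV groups, and Lars and Eprs are higher. Among the ovulated libraries CKO 2 is the high point of Qars and Rars (89.0 and 66.5 CPM).

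The second question was whether loss of Mff went with a change in synthetase transcripts. At the GV stage 33 of the 37 synthetases passed the filter on low counts, and none was called between CKO and WT. Only 0.0163% of the 12298 genes tested were called, 2 genes of which Mff was the lower. No synthetase had an unadjusted p under 0.05, against 6.66% of all genes, and DESeq2 and limma called none. The log2 fold change was below 0 in 29 of the 33 synthetases, against 5795 of all 12298 genes. Its median was -0.15 for the cytosolic, -0.29 for the mitochondrial and 0.03 for all genes. GV CKO 1, GV CKO 2 and GV WT 2 stood apart, and their part in this count was not tested. Only Aars2 had groups that did not overlap (1 of 33, against 4.59% of all genes), at 0.356 ± 0.109 CPM in GV CKO and 0.643 ± 0.310 CPM in GV WT (SD, n = 4 each). That is 5 to 13 counts in each GV CKO library and 12 to 25 in each GV WT library.

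The 4 synthetases with the smallest p at this stage were Lars2, at -0.48 (SE 0.23, adjusted p = 0.746), Aars2, at -0.82 (SE 0.42), Sars2, at -0.69 (SE 0.36), and Tars, at -0.44 (SE 0.27). Lars2, the mitochondrial leucyl synthetase, averaged 6.53 ± 1.26 CPM in GV CKO and 9.09 ± 1.18 CPM in GV WT (SD, n = 4 each). For Iars2 the CKO mean was 4392 ± 1495 CPM and the WT mean 5520 ± 2005 CPM (SD, n = 4 each), and the lowest values of both groups came from libraries that stood apart. Hars2, Mars2, Vars2 and Yars did not pass the filter on low counts. Without the 3 GV libraries that stood apart, still no synthetase was called.

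In ovulated oocytes 2 of the 31 synthetases tested were called, Rars and Qars, both higher in CKO. That was 6.45% of those tested, where 7.84% of all 12010 genes were called, 6.44% higher and 1.4% lower, so the share was close to the background. Rars had 35.2, 81.7 and 33.5 CPM in ovulated CKO, against 22.7, 22.2 and 16.1 CPM in ovulated WT, 1.30 higher on the log2 scale (SE 0.35, adjusted p = 0.0332). Qars had 40.9, 109 and 37.5 CPM in ovulated CKO, against 31.1, 25.3 and 12.5 CPM in ovulated WT, 1.45 higher on the log2 scale (SE 0.42, adjusted p = 0.0448). In both genes every CKO library lay above every WT library, and the CKO 2 library was the highest. Without CKO 2 the log2 fold changes were 0.76 for Rars (adjusted p = 0.226) and 0.78 for Qars (adjusted p = 0.345). Without WT 3 they were 1.16 (adjusted p = 0.128) and 1.15 (adjusted p = 0.172). Without WT 2 they were 1.37 (adjusted p = 0.0738) and 1.52 (adjusted p = 0.0999), and without WT 1 Rars was at 1.39 (adjusted p = 0.0665). Without both CKO 2 and WT 3 they were 0.62 for Rars (adjusted p = 0.297) and 0.48 for Qars (adjusted p = 0.428). Limma on log2(FPKM + 1) gave 1.30 for Rars and 1.45 for Qars but called neither (adjusted p = 0.0981 and 0.128). The direction was the same in all of these fits, and both calls held without CKO 1 or CKO 3.

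In 8 of the 31 synthetases tested the ovulated groups did not overlap, against 28.5% of all genes. Rars, Qars, Aars and Mars had all CKO libraries above all WT libraries (15.8% of all genes did), and in each the CKO 2 library was the highest. Aars had 3.70, 11.2 and 4.08 CPM in ovulated CKO, against 3.33, 2.30 and 1.31 CPM in ovulated WT (log2 fold change 1.45, SE 0.52, adjusted p = 0.105). Its log2 fold change was 0.75 without CKO 2 and 0.47 without both CKO 2 and WT 3, and with no filter on low counts Aars was called (1.43, adjusted p = 0.0481). Hars, Wars, Tars and Kars had all CKO libraries below all WT libraries (12.7% of all genes did), with log2 fold changes of -1.06, -0.69, -0.59 and -0.32, and none was called (adjusted p = 0.137, 0.184, 0.211 and 0.503). Leaving out the CKO 1 library gave 4 calls, Rars and Qars higher and Hars (-1.46, adjusted p = 0.0418) and Eprs (-0.81, adjusted p = 0.0463) lower in CKO. Yars2, the mitochondrial tyrosyl synthetase, had the fourth smallest p, at 2.67 (SE 1.04, adjusted p = 0.132), on 12, 61 and 38 counts in ovulated CKO against 3, 12 and 0 in ovulated WT. Without WT 2 it was at 4.30, and without both CKO 2 and WT 3 at 1.68. Iars2, at 423 ± 93.7 CPM in CKO and 351 ± 109 CPM in WT (SD, n = 3 each), was not called (0.27, SE 0.28).

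The medians in this comparison lay near 0, at -0.08 for the cytosolic and 0.10 for the mitochondrial synthetases, against 0 for all genes. No mitochondrial synthetase was called among the 12 tested in the fit of the ovulated libraries alone. In a fit over all 4 groups Yars2 (2.61, adjusted p = 0.024) and Cars2 (2.11, adjusted p = 0.043) were called higher in CKO. Aars2, Mars2, Sars2, Vars2 and Yars did not pass the filter, and Hars2 was not listed. Of the 14 oocyte markers, 5 were also called higher in ovulated CKO (Figla, Npm2, Padi6, Zp2 and Zp3), with log2 fold changes of 1.14 to 4.06. Of all genes 6.44% were called higher. The markers did not move together: 6 of the 14 were below 0, among them Gdf9 (-0.79) and Mos (-0.74), and none was called lower. The call of Npm2 was lost without CKO 2 (0.90, adjusted p = 0.0688), WT 1 (1.13, adjusted p = 0.0651) or WT 2 (1.10, adjusted p = 0.0596), and the other 4 calls held without any single library. The summed level of these markers was 16380 to 21610 CPM in ovulated CKO and 16810 to 21060 CPM in ovulated WT, none of them was at 0 in either group, and their part in the result for Rars and Qars was not tested.

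**Figure D5:**
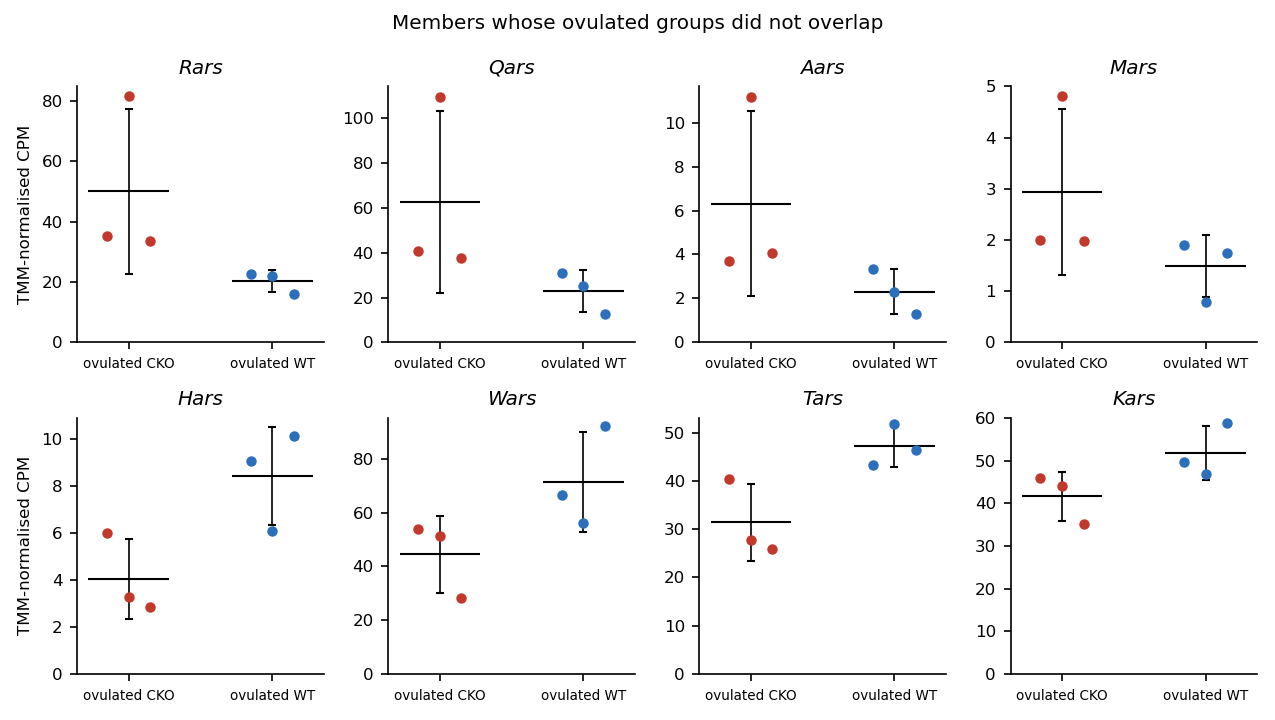
CPM in each ovulated library (points) for the 8 synthetases whose CKO and WT values did not overlap, with the mean as a line and SD as bars. Rars, Qars, Aars and Mars are higher in CKO, with 1 library (CKO 2) far above the other 2, and Hars, Wars, Tars and Kars are lower in CKO; Rars and Qars alone passed the test.

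An interaction term tested whether the CKO effect depended on the stage. No synthetase passed among 35 tested, where 3.26% of all genes did, and 7 synthetases had an unadjusted p under 0.05, against 15.5% of all genes. Qars had the smallest p, and its CKO effect was higher after ovulation by 1.81 on the log2 scale (SE 0.56, adjusted p = 0.0897). Yars2 (2.76, SE 0.89, adjusted p = 0.11), Cars2 (2.47, SE 0.81, adjusted p = 0.118) and Rars (1.30, SE 0.49, adjusted p = 0.186) came next. DESeq2 called Qars, Yars2 and Cars2 in the same model. Without CKO 2 the terms were 1.13 for Qars, 2.31 for Yars2, 1.13 for Cars2 and 0.75 for Rars, and without both CKO 2 and WT 3 they were 0.91, 1.82, 0.93 and 0.69. Leaving out other ovulated libraries gave calls: Qars (2.04, adjusted p = 0.0403) and Yars2 (3.17, adjusted p = 0.0295) without CKO 1, Cars2 (2.94, adjusted p = 0.028) without CKO 3, and Yars2 (4.40, adjusted p = 0.0265) without WT 2. Of the 20 synthetases that fell in both genotypes, 14 had the smaller fall in CKO, a share that was not counted over all genes. This count repeats the direction of the interaction term and is no separate evidence.

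Genes that work beside the synthetases were grouped into lists by function. Of 17 partner and editing genes tested, 10 fell and 2 rose at ovulation in CKO oocytes, and 11 fell and 4 rose in WT oocytes. Of all genes tested, 31.2% fell and 23.2% rose in CKO, and 36.2% fell and 30.3% rose in WT. These shares also stand beside the stage counts of the lists below. In WT all scaffold genes of the multisynthetase complex fell, Aimp2 by 4.45, Aimp1 by 1.75 and Eef1e1 by 1.42 on the log2 scale. The amidotransferase genes of the mitochondrial glutamine route split: Gatb rose by 1.84, Gatc fell by 1.20 and Qrsl1 fell by 1.92. The largest fall was of Aarsd1, an editing protein that removes serine wrongly joined to the alanine tRNA, at -6.69 (SE 0.66). Pstk, the kinase of the selenocysteine route, fell by 3.01, and Ptrh2, a peptidyl-tRNA hydrolase, by 2.95.

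Of 22 genes of tRNA processing and export, 16 fell and 1 rose at ovulation in CKO oocytes (median log2 fold change -2.40), and 15 fell and 2 rose in WT oocytes (median -2.05). In WT, Pop4 (-3.19) and Pop5 (-5.30), subunits of ribonuclease P, Hsd17b10 (-4.36), a subunit of the mitochondrial ribonuclease P, and Rtcb (-4.66), the tRNA ligase, had the smallest p-values. Of 30 tRNA modification genes, 12 fell and 6 rose in CKO, and 14 fell and 8 rose in WT, with Qtrt1 (-5.97), Trit1 (-2.47), Trmt5 (-2.71) and Elp3 (-4.44) first by p in WT. Of 19 amino acid response genes, 8 rose and 6 fell in CKO, and 8 rose and 7 fell in WT. Atf4, the transcription factor of this response, fell by 1.44 in CKO and by 3.48 in WT. Eif2ak4, the kinase that senses uncharged tRNA, rose by 1.98 in CKO and by 2.48 in WT. Ddit3, a further transcription factor of the response, was at -3.35 in CKO and -3.92 in WT, and Phgdh, the first enzyme of serine synthesis, at -3.55 in CKO and -4.41 in WT, and both genes were called in both genotypes.

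Between ovulated CKO and WT oocytes the calls were 1 of 17 partner genes, 1 of 21 processing genes, none of 26 modification genes and 2 of 17 amino acid response genes, where 7.84% of all genes were called. Of the modification genes 8 had an unadjusted p under 0.05, against 23.3% of all genes. Aarsd1 was higher in CKO by 3.53 (SE 0.92, adjusted p = 0.0283), and its interaction with stage passed as well (3.61, SE 0.76, adjusted p = 0.015). Hsd17b10 was higher by 2.29 (adjusted p = 0.0357) and Atf4 by 1.56 (SE 0.37, adjusted p = 0.0172), while Ppp1r15a, a phosphatase subunit that reverses the translational block of this response, was lower at -0.88 (adjusted p = 0.0458). These genes were refitted without single libraries, a check added after seeing the data. Without CKO 2 none of the 4 was called, at 2.98 for Aarsd1 (adjusted p = 0.195), 2.22 for Hsd17b10 (adjusted p = 0.117), 1.00 for Atf4 (adjusted p = 0.125) and -0.74 for Ppp1r15a (adjusted p = 0.202). Aarsd1 and Atf4 also lost the call without WT 2 (adjusted p = 0.0794 and 0.0607) or WT 3 (adjusted p = 0.0699 and 0.0663), and Hsd17b10 and Ppp1r15a lost it without any single library other than CKO 1. The interaction of Aarsd1 was 3.06 without CKO 2 (adjusted p = 0.0587) and stayed called without any other single library. None of these 4 lists had a call between CKO and WT at the GV stage, where Atf4 was at -0.52 (SE 0.46, adjusted p = 0.791). At that stage 17 partner, 22 processing, 28 modification and 19 amino acid response genes were tested. Over the 4 lists 5 genes had an unadjusted p under 0.05, against 6.66% of all genes.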

How the data were processed

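Oocyte cDNA was made with SMART-SeqII and amplified by PCR, per the labels' protocols. For each stage the authors deposited a table of estimated counts per gene, per the file headers a read count, of which 17.6% (GV) and 18.3% (ovulated) of the values above 0 were not whole (tolerance 0.001). They also deposited FPKM per gene, under file names that spell it FRKM. The submitters' processing notes name the build mm10, and no source used here names the aligner or counter.

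Counts were rounded and tested with edgeR 4.0.16 (quasi-likelihood, filterByExpr, TMM scaling, R 4.3.3), per stage for CKO against WT, and in a fit of all 14 libraries over the 16196 genes in both tables for stage and interaction. Calls were at an adjusted p under 0.05 over all genes tested. Values in CPM are TMM-scaled within a fit, so the stage and genotype comparisons give a library slightly different CPM. DESeq2 1.42.0, limma 3.58.1 on log2(FPKM + 1), other filters and scalings, and each library left out were alternatives. The procedure was tested on simulated data. Named per comparison were Mff, called synthetases (up to 10 by p, otherwise the 4 smallest p), the level extremes, and up to 4 called genes per list; other synthetases and list genes were named after their values were seen, as they fill out a role. The members and lists were chosen with earlier results of these data known. PCR reads are not independent molecules. The values of 1 mitochondrial synthetase and the upstream sequence of 1 cytosolic one are not reported here, though both are included in the counts.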

Additional observations from a re-analysis of the deposited data

Results flagged for a closer look

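The levels of the synthetases and Mff were examined for a library far from the others of its group, in CPM, in the 76 groups of 4 GV libraries, and 5 were found, where chance gives about 1 in 20. In GV WT 2, Cars was at 11.1 CPM against 30.3 to 31.9 in the other GV WT libraries, Mars at 8.28 against 19.1 to 21.0, and Nars at 96.6 against 169 to 170. This library was among the 3 that stood apart in the share of counts in the most abundant genes. Dars was at 50.6 CPM in GV CKO 1, another of them, against 74.0 to 78.6 in the other GV CKO libraries. Aars2 was at 1.11 CPM in GV WT 1, against 0.460 to 0.538 in the other GV WT libraries, on 25 counts against 12 to 17. The ovulated groups of 3 libraries were too small for this check.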

How the results depend on the processing

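Of 548 refits of the 32 results on single synthetases, 522 kept their direction and their side of the threshold, 17 lost the call, 9 gained it and none reversed. All 17 lost calls were those between CKO and WT in ovulated oocytes, Qars in 9 of its 18 refits and Rars in 8 of 18. The total of 522 therefore does not describe these 2 calls. The 522 include a setting that only added a cut at a log2 fold change of 1 to the main fit. That setting could not change any of these results and is no check of them. In CKO oocytes 23 synthetases changed with stage, and 15 did with a mean of at least 10 CPM, where 18 were tested; in WT oocytes the counts were 25 and 14, also of 18 tested. In ovulated oocytes the 2 calls became 1 with that filter, 1 with the length trend removed, 0 in each of the 3 limma fits on FPKM, 4 in a fit over all 4 groups, 0 without the 2 libraries farthest out (chosen after seeing the data) and 0 to 4 with a library left out. The interaction gave 3 calls with DESeq2 and 0 to 2 with a library left out. The cause was not tested, apart from the smaller number tested with the filter. At the GV stage all 20 alternatives gave 0. Removing the length trend moved the median of all genes in the stage comparisons to 0.08 in CKO (RLE scaling: -0.08), against -0.19, and to 0.13 in WT, against -0.17, where the medians of the cytosolic and mitochondrial synthetases became -0.61 and -2.50. The mitochondrial median in ovulated oocytes, 0.10, changed sign without WT 1 (-0.11) or WT 2 (-0.14). Whether replicate numbers pair the libraries is not stated. To look for a pairing, each library's log CPM was set as a deviation from its group mean, gene by gene. Genes with a mean of at least 10 CPM were used. Deviations within a group offset one another, so the correlations below are not independent and do not measure how alike whole libraries are. Correlations of these deviations between CKO and WT libraries of the same number were -0.5, 0.34, 0.06 and 0.6 at the GV stage. Those of different numbers ran from -0.74 to 0.69. After ovulation same-number correlations were 0.23, 0.06 and 0.37, and the others ran from -0.46 to 0.15. A pairing after ovulation cannot be told from these values. A replicate block gave 20 calls in CKO, 25 in WT, 2 in ovulated oocytes, 0 at the GV stage and 0 for the interaction. With this block in edgeR 13.6% of all genes were called in ovulated oocytes, against 7.84% without it. Rars was then at 1.19 (adjusted p = 0.00365) and Qars at 1.37 (adjusted p = 0.00183). Several mitochondrial synthetases had fewer than 20 counts per ovulated library.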
